A study of Mus musculus with 4 samples.

Results

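The proximal part of mouse chromosome 8, from the first gene of the chromosome up to the gene before Tnks, was examined in activated B lymphoma cells with and without Mbd4. Members were taken by position: every gene of chromosome 8 with a start below that of Tnks in the RefSeq annotation of GRCm38.p6 and a transcript cluster that names no other gene, leaving out 3 genes of the stretch that are not described here. This gave 218 genes, measured by 228 clusters, of 19853 genes with 1 symbol and a chromosome. The stretch itself was chosen by the difference between Mbd4 KO and control arrays in these same data, where its genes had been seen to be lower. The differences below are therefore a description, and no test of the stretch is drawn from them.

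The study used CH12.F3, a B lymphoma line of the mouse that can switch from IgM to IgA in culture, and hybridised its RNA to 4 arrays, a control group and an Mbd4 KO group of 2 arrays each. Both groups had been grown in medium with 6% fetal calf serum and treated for 24 hours with CD40 ligand at 25% of the volume, TGF-beta at 0.2 ng/ml and IL-4 at 5 ng/ml. The labels name no other allele or agent, and do not say whether a group is 1 clone or several, or whether its arrays came from separate cultures. Differences between clones and the loss of Mbd4 cannot be told apart, and limma's calls rest on the spread among these arrays alone, and that spread may be technical. All values are log2 signals per transcript cluster as deposited, and a difference is the Mbd4 KO mean minus the control mean.

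Mbd4 belongs to the family of proteins with a methyl-CpG-binding domain and is a base excision repair enzyme, which cuts out the mismatched base left when cytosine or its methylated form is deaminated. The proximal part of chromosome 8 holds neighbours of unrelated function. Among them are housekeeping genes of transcription, cell division and the lysosome, the kinase gene Ikbkb, and Tnfsf13b, whose product acts on B cells. Others are the CD209 lectins of dendritic cells and macrophages, and the large cluster of defensins, antimicrobial peptides of Paneth cells and other epithelia.

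Promoter windows of 4 members are shown as examples of genes that were lower, of one that was not and of a defensin. They run from 250 bases before to 50 bases after the annotated start, 5′ to 3′ on the strand of the gene, from RefSeq (GRCm38.p6), and capitals mark CG dinucleotides, the sites that Mbd4 binds when methylated. Rasa3 and Ckap2 had the largest negative differences among expressed genes that have 1 window in the table used, 3930402G23Rik had the highest difference among them, though its sign turns when 1 array is left out, and Defb15 is the brightest defensin.
Rasa3: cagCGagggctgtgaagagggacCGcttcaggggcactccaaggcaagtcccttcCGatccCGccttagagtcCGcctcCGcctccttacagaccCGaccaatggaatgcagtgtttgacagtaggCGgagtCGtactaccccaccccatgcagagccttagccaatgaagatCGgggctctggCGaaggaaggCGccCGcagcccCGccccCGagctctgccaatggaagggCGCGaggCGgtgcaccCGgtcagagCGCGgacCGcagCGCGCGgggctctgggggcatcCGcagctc
Ckap2: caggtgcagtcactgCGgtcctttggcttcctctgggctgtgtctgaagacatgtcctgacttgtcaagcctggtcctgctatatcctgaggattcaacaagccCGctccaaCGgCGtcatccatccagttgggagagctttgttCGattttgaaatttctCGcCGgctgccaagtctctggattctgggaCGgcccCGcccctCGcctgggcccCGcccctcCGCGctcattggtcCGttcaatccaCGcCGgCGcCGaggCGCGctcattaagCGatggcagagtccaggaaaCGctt
3930402G23Rik: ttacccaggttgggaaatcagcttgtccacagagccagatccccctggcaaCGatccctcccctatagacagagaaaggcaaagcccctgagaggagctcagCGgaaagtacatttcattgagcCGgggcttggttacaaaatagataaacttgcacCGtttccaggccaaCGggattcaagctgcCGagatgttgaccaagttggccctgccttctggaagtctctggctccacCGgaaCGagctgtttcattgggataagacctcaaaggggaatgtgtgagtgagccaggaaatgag
Defb15: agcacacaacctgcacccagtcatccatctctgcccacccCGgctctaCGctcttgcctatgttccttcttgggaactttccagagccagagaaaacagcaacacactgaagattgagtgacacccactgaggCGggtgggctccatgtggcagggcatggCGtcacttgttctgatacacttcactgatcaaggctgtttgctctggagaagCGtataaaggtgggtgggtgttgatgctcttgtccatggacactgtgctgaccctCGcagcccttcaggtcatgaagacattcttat
The windows lie at chr8:13677538-13677837 (Rasa3), chr8:22185770-22186069 (Ckap2), chr8:10928408-10928707 (3930402G23Rik) and chr8:21932661-21932960 (Defb15), each on the minus strand. They hold 26, 22, 8 and 6 CG dinucleotides, in that order, and 16.9%, 23.1%, 48.6% and 56.4% of all 32851 windows of this length hold at least as many. Windows were found for 98 of the 218 members (45%), under the 80% needed, so a comparison of CG content between members is void and none is made.

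The 4 arrays ranked as labelled, since Mbd4, on chromosome 6, gave 8.74 and 8.77 in control cells, against 6.47 and 6.49 in Mbd4 KO cells. The array medians lay between 6.944 and 6.978. All 7 measured B cell markers of 8 listed were bright (10.22 to 13.37), and their mean was 11.44 and 11.47 in control and 11.52 and 11.57 in Mbd4 KO arrays. Of the markers of other cells, none of 4 for T cells and none of 4 for Paneth cells reached the level cut explained below, against 1 of 4 for myeloid cells (Csf1r, at 7.37) and 2 of 4 for fibroblasts (Col1a1 and Col1a2, at most 7.59), and limma called no marker. The mean levels of the B cell, T cell and myeloid markers were slightly higher in both Mbd4 KO arrays than in both control arrays. Those of the fibroblast and Paneth cell markers overlapped, and the part of the markers in the results was not tested.

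Among the members with a bright signal, nearly the whole stretch was lower in Mbd4 KO cells. A gene is called expressed here when the mean of its brightest cluster over the 4 arrays is at least 7.159, the median over all genes. Signal also depends on the probes, so this cut separates bright from dim signals and does not prove transcription. By it, 97 members were expressed and 121 were not. Of the 97, 89 (91.8%) had a difference below zero, with a median of -0.30 and quartiles of -0.38 and -0.18. On a linear scale the median is 1.23-fold lower. Centred on each gene's mean, the median of the 97 was 0.15 and 0.14 in the control group, against -0.15 and -0.14 in the Mbd4 KO group, so that the groups stood apart and the arrays of each nearly coincided. In these bulk cells, a lower level in every cell and a loss in some of the cells cannot be told apart.

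Most expressed members had separate ranges in control and Mbd4 KO cells. For 82 of the 97 (84.5%) both Mbd4 KO arrays lay below both control arrays, against 23.5% of all 9927 expressed genes. In 4 (4.12%) both lay above, against 30.7% of all expressed genes. The differences of the 82 ran from -0.63 to -0.087, and their median was -0.33. The median difference over the 9068 expressed genes outside chromosomes 8 and 16 was 0.022, and over the 446 of the rest of chromosome 8 it was 0.026. Within groups the members were steady: the median of control array 2 minus control array 1 was -0.0084 and that of the Mbd4 KO arrays 0.011 over the 97, and the median SD between arrays of a group was 0.0405 and 0.0494, close to the 0.0465 and 0.0473 of expressed genes outside chromosomes 8 and 16.

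**Figure D1:**
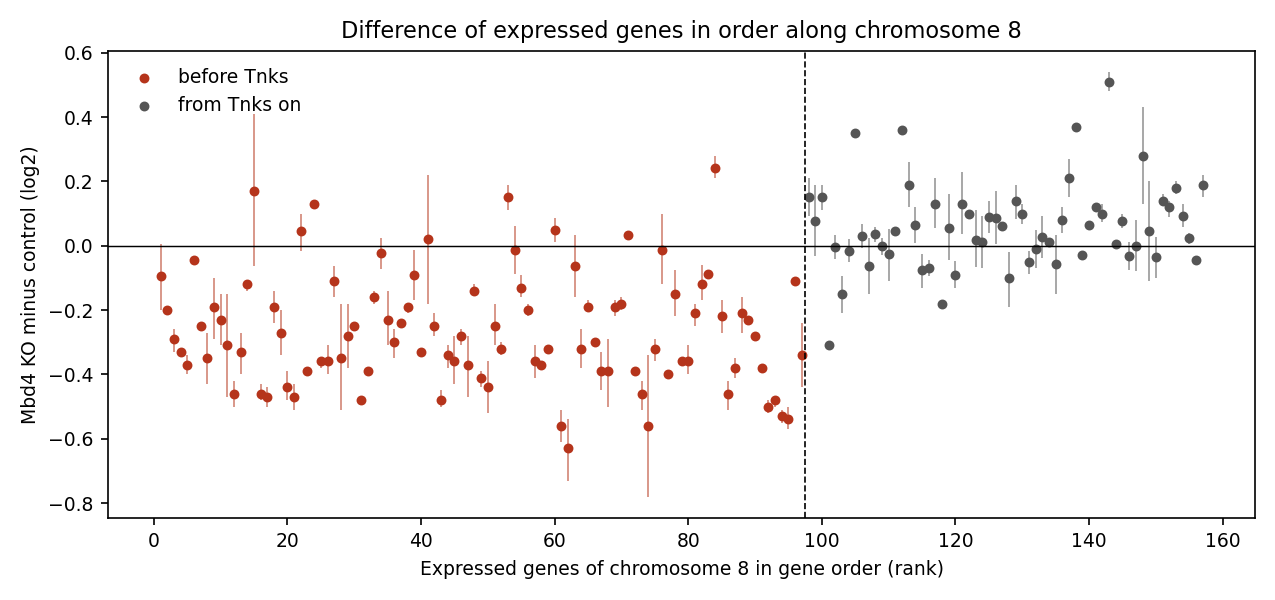
Each point is an expressed gene of chromosome 8, placed by its rank in gene order (x axis), with its difference between Mbd4 KO and control means on the log2 scale (y axis); the bar spans the 2 Mbd4 KO arrays, each minus the control mean. The 97 genes before Tnks (red) sit mostly below zero, at a median of -0.30, and the first 60 from Tnks on (grey) sit around zero; the dashed line is the border.

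The lower level was spread over the whole stretch and was not carried by one part of it. In consecutive blocks of 15 expressed genes from the start of the chromosome, the median differences were -0.25, -0.35, -0.25, -0.28, -0.32 and -0.22, and the last 7 genes before the border had a median of -0.48. Each full block held 13 or 14 genes below zero. The longest unbroken runs below zero were 16 genes, from Pcid2 to 2610005L07Rik, and 14 genes, from Pex11g to Abhd13, and no 2 neighbouring expressed members lay at or above zero. Of 597 such blocks on chromosomes other than 8 and 16, none had a median as low as -0.22, their lowest being -0.15, and neither did any of the 29 blocks on the rest of chromosome 8. On chromosome 16, where most expressed genes were also lower (median -0.28 over 316), 19 of 21 blocks did. The stretch was chosen for its lower values in these same data, so this comparison is a description and no test.

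Limma called 16 of the 228 member clusters lower (7.02%) and 0 higher, at a Benjamini-Hochberg adjusted p under 0.05 over all 21789 clusters, where 0.955% of all clusters were called lower and 0.431% higher. At an unadjusted p under 0.05 the counts were 80 lower and 8 higher. For these and all later counts at an unadjusted p, the share over all clusters is not given, so they have no background beside them. The 16 clusters belong to 15 genes: Tacc1, Plekha2, Tnfsf13b, Leprotl1, Vdac3, Dctn6, Gtf2e2, Rbpms, Ckap2, Rasa3, Naxd, Arhgef7, Mak16, Hook3 and Shcbp1. Among the 16 is a pair of Vdac3 clusters that share all 4 values, so the same values are counted more than once. With any 1 of the 4 arrays left out 0 clusters were called, against 66 to 69 lower at an unadjusted p under 0.05, so no single call holds without all 4 arrays. Since the contrast chose the stretch, nothing is read from these counts.

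The members are described next by role. The counts of each list stand beside the 23.5% of all expressed genes and the 84.5% of the stretch given above, and differences between lists were not tested. Of the genes of cell division and DNA repair, all 11 expressed members of 12 had Mbd4 KO arrays below the control arrays, with a median difference of -0.38. Tacc1, a centrosomal protein that helps to organise spindle microtubules, had the largest difference of all expressed members, from 8.92 and 8.90 in control to 8.18 and 8.37 in Mbd4 KO arrays (-0.63 ± 0.084, SE; 1.55-fold lower). Ckap2, a spindle-associated protein, went from 8.28 and 8.23 to 7.80 and 7.75 (-0.48 ± 0.068). The groups were far apart in both genes, although the Mbd4 KO arrays of Tacc1 differed more from each other. Shcbp1, a midbody protein of cytokinesis, had 8.91 and 8.94 against 8.51 and 8.43. Cdc16, a subunit of the anaphase-promoting complex (-0.39), Tubgcp3, of the gamma-tubulin complex (-0.39), and Wrn, the Werner syndrome helicase (-0.38), were lower by like amounts. Gins4, a subunit of the replicative helicase complex (-0.20), and Mcph1, a regulator of chromosome condensation (-0.24), differed less. Tex15, a germ cell gene and the dim member of this list, differed by 0.078.

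Kinases and regulators of small GTPases followed the same pattern where they were bright. All 8 expressed members of 16 had Mbd4 KO arrays below the control arrays (median -0.45). Plekha2, an adaptor with a PH domain that binds phosphoinositides in B cells, had 10.35 and 10.39 in control and 9.76 and 9.86 in Mbd4 KO arrays (-0.56 ± 0.072; 1.47-fold lower). Rasa3, a GTPase-activating protein for Ras and Rap1, had 7.60 and 7.59 against 7.11 and 7.12 (-0.48 ± 0.065), with arrays of a group almost equal. Arhgef7, an exchange factor for Rac and Cdc42, had 9.01 and 9.02 against 8.59 and 8.51. Ikbkb, the IKK-beta kinase that releases NF-kappaB downstream of CD40, had 9.09 and 9.06 against 8.56 and 8.72 (-0.44 ± 0.080). Ppp2cb, a catalytic subunit of protein phosphatase 2A and among the brightest members, was lower by less (-0.23). The dim members of the list ran both ways, up to 0.19 for Grk1, the rhodopsin kinase gene.

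Of the genes of chromatin, transcription and RNA, 20 of 21 members were expressed. In 19 the difference was below zero and in 16 the arrays did not overlap, with a median of -0.32. Gtf2e2, the beta subunit of the general factor TFIIE, had 8.94 and 8.85 in control and 8.38 and 8.41 in Mbd4 KO arrays (-0.50 ± 0.071). Rbpms, an RNA-binding protein, had 9.45 and 9.51 against 9.02 and 8.98 (-0.48 ± 0.068), and Mak16, a ribosome biogenesis factor, had 10.01 and 9.97 against 9.48 and 9.57 (-0.46 ± 0.071). The groups stood apart in all of these. The histone acetyltransferase gene Kat6a (-0.32), the H3K36 methyltransferase gene Nsd3 (-0.32) and the splicing factor gene Xab2 (-0.33) lay near the median of the stretch. Among the brightest, Elavl1, which binds AU-rich RNA, had 11.12 and 11.27 against 10.90 and 11.09 (-0.19), and Tfdp1, the partner of E2F factors, had 11.54 and 11.55 against 11.29 and 11.30 (-0.25 ± 0.065). In this list 4 members had arrays that overlapped: Coprs (-0.024), Zfp703 (-0.013), Eif4ebp1 (-0.12) and Sox1 (0.045).

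Lysosomal, trafficking and protein turnover genes had 17 of 19 expressed members with Mbd4 KO arrays below the control arrays (median -0.34). Dctn6, a subunit of dynactin, had 10.76 and 10.75 in control and 10.24 and 10.20 in Mbd4 KO arrays (-0.53 ± 0.066; 1.44-fold lower). Leprotl1, an endosomal membrane protein, had 8.62 and 8.56 against 8.02 and 8.09 (-0.54 ± 0.070), and Hook3, an adaptor that links cargo to dynein, had 8.65 and 8.69 against 8.25 and 8.16. In each of these the groups were separated by several times the spread within a group. Rnf170, an endoplasmic reticulum ubiquitin ligase, had a difference as large (-0.56 ± 0.16), but its Mbd4 KO arrays, 8.25 and 8.69, lay far apart and limma did not call it. Its second cluster differed by -0.31. Mcoln1, the lysosomal TRPML1 channel (-0.20), Lamp1, the lysosomal membrane protein (-0.11), and Trappc5, a subunit of a tethering complex (-0.043, arrays overlapping), were closer to zero. Rnf122 was the one expressed member of the list above zero.

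In mitochondria and metabolism all 13 expressed members of 18 had Mbd4 KO arrays below the control arrays (median -0.30). Naxd, which repairs hydrated NADH and NADPH, had 9.23 and 9.22 in control and 8.72 and 8.79 in Mbd4 KO arrays (-0.47 ± 0.068). Vdac3, a porin of the outer mitochondrial membrane, had 11.61 and 11.63 against 11.19 and 11.24 in its brightest cluster (-0.41 ± 0.067), which limma did not call. The other clusters of Vdac3, a pair that share all 4 values, were called (-0.54 ± 0.074). Gsr, glutathione reductase, had 8.30 and 8.37 against 7.95 and 7.96 (-0.38 ± 0.068). Pnpla6, a lysophospholipase (-0.29), Timm44, of the mitochondrial import motor (-0.35), and Slc25a15, the ornithine carrier (-0.36), were lower by like amounts.

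Ligands, receptors and extracellular factors were mostly dim in these cells. Only Adam9, a membrane metalloprotease, reached the cut of the 20 members, with 10.37 in both control arrays and a mean of 10.01 (SD 0.0033, n = 2) in the Mbd4 KO arrays (-0.37 ± 0.065). Tnfsf13b, the B cell survival factor BAFF, is dim here but had tight values, 6.84 and 6.85 in control against 6.33 and 6.26 in Mbd4 KO arrays (-0.55 ± 0.068), and was the 1 dim member that limma called. Irs2, the insulin receptor substrate, differed by -0.11, and Fgfr1, a fibroblast growth factor receptor, by -0.075 with overlapping arrays. The insulin receptor gene Insr had 2 dim clusters that went opposite ways (0.25 and -0.25), so that no direction can be given for it.

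**Figure D2:**
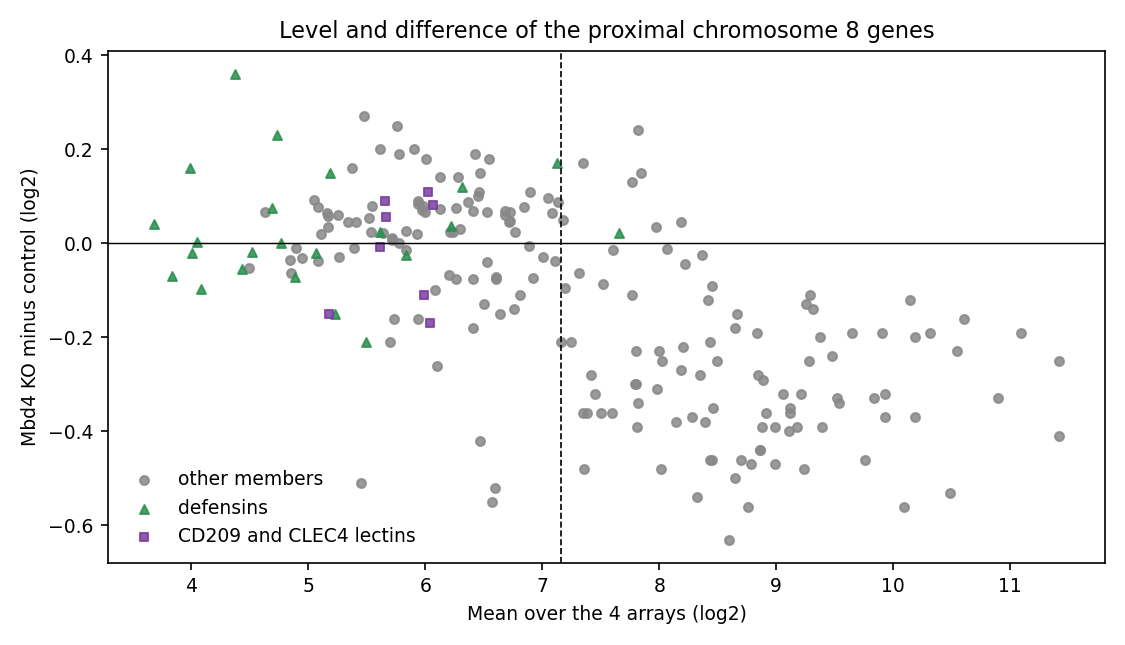
Each point is 1 of the 218 members, with its mean over the 4 arrays (x axis, log2) and its difference between Mbd4 KO and control means (y axis, log2). Members to the right of the dashed line at 7.159 lie mostly below zero, while the defensins (triangles) and the CD209 and CLEC4 lectins (squares) scatter around zero at the dim end.

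The difference varied with the signal of the gene. The 121 members under the level cut had a median difference of 0.024, against 0.029 for all 9926 genes under it, and 18 of them (14.9%) had Mbd4 KO arrays below the control arrays, against 12.6% of all genes under the cut. In 22 (18.2%) they lay above, against 23.5% of all genes under the cut. Members between the lower quartile of all genes (5.829) and the cut had a median of 0.041 (66 genes). The 74 from the cut to the upper quartile (9.37) had a median of -0.30, the 11 from there to a level of 10 one of -0.33, and the 12 at 10 or above one of -0.24. All 23 members at or above the upper quartile were below zero, from -0.56 to -0.12, against 45.9% of all genes at that level. In 22 (95.7%) both Mbd4 KO arrays lay below both control arrays, against 25.7% of all genes at that level. Across the 97 expressed members the correlation of level and difference was weak (Pearson's r = -0.262, Spearman's rho = -0.242). The points share the 4 arrays and are not independent. Besides Tnfsf13b, the dim members with the most negative differences were Purg (-0.52), a relative of the Pur-alpha nucleic acid binding protein, the testis gene Tex24 (-0.51), whose control arrays differed by more than most (5.91 and 5.49), and the copper transporter gene Atp7b (-0.42). These 3 were picked after their values were seen.

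The defensin cluster gave little signal and no common shift. It lies inside the stretch, between Xkr5 and Alg11, and of its 23 measured genes 18 were under the lower quartile of all genes, with levels from 3.68 to 7.66 and a median of 4.77. Their median difference was 0.0019, with 10 below zero. In 4 the Mbd4 KO arrays were below and in 4 above the control arrays, against 12.6% and 23.5% of all genes under the level cut. Defb15, the brightest and the only one past the cut, had 7.67 and 7.63 in control and 7.87 and 7.47 in Mbd4 KO arrays, which overlap. Defb46 had a mean of 7.04 (SD 0.052, n = 2) against 7.21 (SD 0.044, n = 2), a difference of 0.17 ± 0.071. Defb5 had the largest difference, from 4.21 and 4.17 to 4.65 and 4.46 (0.36 ± 0.084), and Defb6 the next, from 4.56 and 4.67 to 4.71 and 4.98 (0.23 ± 0.10), both at very dim signals where limma called neither. Defensins spread more between arrays (median SD 0.113 in control and 0.0731 in Mbd4 KO arrays) than expressed members. Expressed genes on either side of the cluster were lower: Agpat5, an acyltransferase of phosphatidic acid synthesis (-0.19), Mcph1 (-0.24) and, nearest to it, Xkr5 (-0.090) before it, 2610005L07Rik within it, from 11.04 and 11.08 to 10.73 in both Mbd4 KO arrays (-0.33), and Alg11, a mannosyltransferase of N-glycan assembly (-0.25), after it.

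The CD209 lectins showed the same lack of a common shift. None of the 8 members, 7 of the CD209 family and Clec4g, reached the cut, their levels ran from 5.18 to 6.06, and their differences from -0.17 to 0.11 with a median of 0.023. The expressed gene next before them, Trappc5, had 8.44 and 8.04 in control and 8.20 and 8.19 in Mbd4 KO arrays, which overlap (-0.043). Stxbp2, a syntaxin-binding protein of granule release and the expressed gene before that, differed by -0.37, and Snapc2, a subunit of the snRNA-activating complex and the next expressed gene after them, by -0.25.

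Of the 97 expressed members, 8 did not follow. Their differences were between 0.022 and 0.24 and their levels between 7.18 and 8.18, in the lower range of expressed genes. Rnf122, a RING-type ubiquitin ligase, had the highest difference, from 7.66 and 7.73 in control to 7.90 and 7.97 in Mbd4 KO arrays (0.24 ± 0.071; 1.18-fold higher), and limma did not call it. Its arrays did not overlap, and the next expressed genes, Tti2, of the TTT complex that stabilises PI3K-like kinases (-0.22), and Mak16 (-0.46), were lower. Pomk, a kinase that phosphorylates O-mannose on dystroglycan, had 7.94 and 7.98 against 7.99 in both Mbd4 KO arrays (0.034 ± 0.066), a difference within its error. It lies between Hgsnat, a lysosomal acetyltransferase (-0.18), and Fnta, the farnesyltransferase alpha subunit (-0.39).

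The other 6 are genes of unknown role or of other tissues. Gm15348 had 7.69 and 7.72 against 7.84 and 7.82, and the microRNA gene Mir3107 had 7.87 and 7.68 against 7.96 and 7.88, neither overlapping. 3930402G23Rik had 7.13 and 7.40 against 7.67 and 7.20, which overlap. Sox1, a transcription factor of neural progenitors, had 8.20 and 8.12 against 8.27 and 8.15. Htra4, a secreted serine protease, had 7.19 and 7.11 against 7.24 and 7.16. Their arrays and those of Defb15 overlapped between groups. Without Mbd4 KO array 1 the difference of 3930402G23Rik was -0.062, that of Sox1 -0.016 and that of Defb15 -0.18. That of Defb15 was also -0.002 without control array 2, and -0.0017 with arrays centred on clusters outside chromosomes 8 and 16, so that no direction can be given for these 3. Whether these clusters carry signal above background could not be assessed, since raw intensities were not used here.

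A further 7 expressed members were below zero with overlapping arrays: Pex11g, a peroxisome division factor (-0.094), Trappc5, Coprs, the pancreatic and gastric transcription factor gene Nkx6-3 (-0.014), Letm2 (-0.063), Zfp703 and Eif4ebp1. Eif4ebp1, the translation inhibitor 4E-BP1, is the brightest of them, with 10.32 and 10.09 in control and 10.14 and 10.03 in Mbd4 KO arrays. Measured against the control mean, an Mbd4 KO array lay above zero for Pex11g (0.0067), Coprs (0.024), Nkx6-3 (0.061), Letm2 (0.032) and Zfp703 (0.098). For Trappc5 both Mbd4 KO arrays (8.20 and 8.19) lay between the control arrays (8.44 and 8.04). No firm direction can be given for any of these 7 genes. The expressed members outside the role lists, 24 of 79, had a median of -0.15, with 19 below zero. In 16 of the 24 both Mbd4 KO arrays lay below both control arrays, against 23.5% of all expressed genes and 84.5% of those of the stretch.

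**Figure D3:**
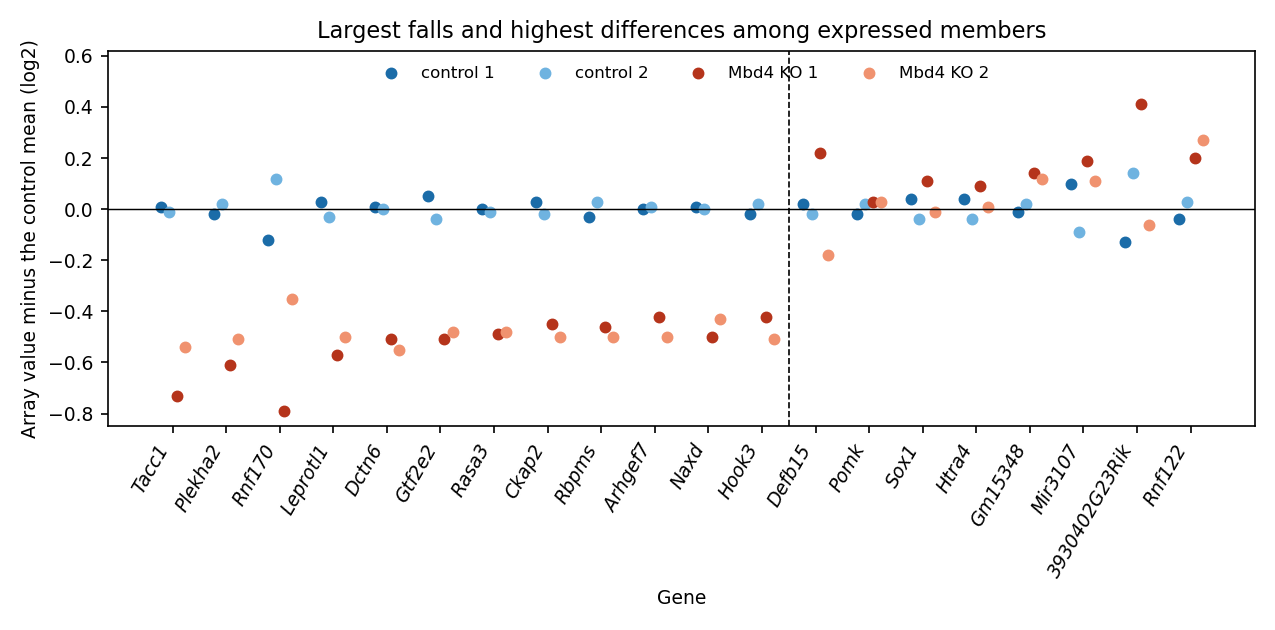
Points are the 4 arrays of each gene, each as its log2 value minus the mean of the control arrays (y axis), for the 12 most negative differences without overlap (left of the dashed line) and the 8 highest differences (right) among expressed members. Mbd4 KO arrays of the genes at left lie at or below -0.34, while at right they lie between -0.18 and 0.41.

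The border of the stretch lies between Dusp4 and Tnks, which are neighbours in the annotation. It was set by these data, so a contrast across it follows in part from that choice. The last 8 expressed genes before it all had Mbd4 KO arrays below control arrays, against 23.5% of all expressed genes and 84.5% of those of the stretch. Their median was -0.43, with a range of -0.54 to -0.11. In order they are Ubxn8, an adaptor of endoplasmic reticulum degradation (-0.28), Gsr, Gtf2e2, Rbpms, Dctn6, Leprotl1, Saraf and Dusp4. Saraf, the inhibitor of store-operated calcium entry, had 7.88 and 7.75 in control and 7.71 and 7.72 in Mbd4 KO arrays (-0.11 ± 0.075), a small difference beside its error. Dusp4, a phosphatase that inactivates MAP kinases, had 8.07 and 7.90 against 7.55 and 7.74 (-0.34 ± 0.098; 1.26-fold lower), with wide spread inside each group but no overlap. Between Dctn6 and Leprotl1 lies Mboat4, the ghrelin acyltransferase gene, which is dim and differed by 0.077.

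From Tnks on, the genes no longer shared a direction. Tnks, a poly-ADP-ribosyltransferase that acts on telomere proteins and axin, had 9.21 and 9.27 in control and 9.33 and 9.44 in Mbd4 KO arrays (0.15 ± 0.075). Its Mbd4 KO arrays lay above the control arrays, the opposite of Dusp4. Next came Ppp1r3b, a glycogen-targeting subunit of protein phosphatase 1 (0.077, overlapping), and Eri1, a histone mRNA exonuclease, with 10.27 and 10.38 against 10.44 and 10.52 (0.15 ± 0.076). The first 8 expressed genes from Tnks on had a median of 0.036, with 4 below zero. In 2 of the 8 the Mbd4 KO arrays still lay below the control arrays, against 23.5% of all expressed genes. Of these 2, Prag1, a pseudokinase, had 8.72 and 8.70 against 8.39 and 8.40 (-0.31 ± 0.065), as low as genes before the border. Tusc3, a subunit of oligosaccharyltransferase, differed by -0.15. Zdhhc2, a palmitoyltransferase, had 10.43 in both control arrays, against 10.77 and 10.78 with Mbd4 KO (0.35 ± 0.065), the highest of the 8. Limma called none of these 8. The blocks of 15 expressed genes from Tnks on had medians of 0.031, 0.060, 0.065 and 0.076.

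**Figure D4:**
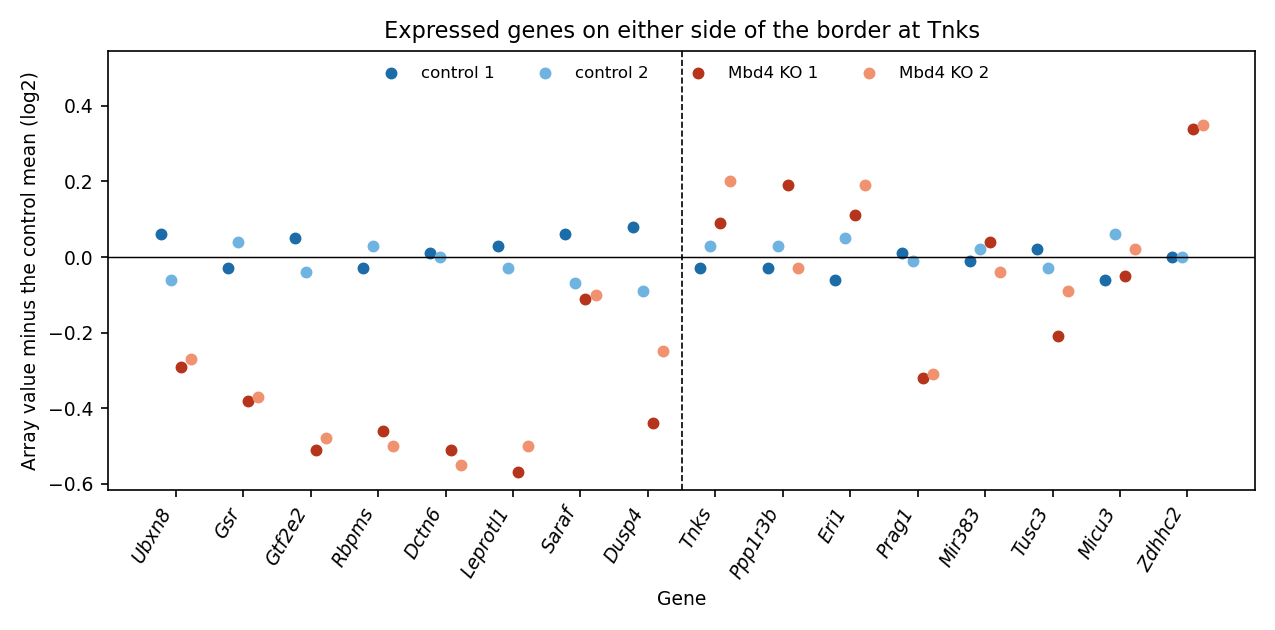
Points are the 4 arrays of each gene, as log2 values minus the control mean (y axis), for the last 8 expressed genes before the border (left of the dashed line) and the first 8 from Tnks on (right), in gene order. All Mbd4 KO points at left lie under the control points of their gene, and at right this holds for Prag1 and Tusc3.

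Of the members, 9 were measured by more than 1 cluster. In the expressed ones the clusters had the same sign: Tfdp1 (-0.25 and -0.19), Rnf170 (-0.56 and -0.31), Vdac3 (-0.41 and -0.54) and Ccl25, a chemokine of thymus and gut (-0.23 and -0.18). The clusters of Kbtbd11 were both slightly above zero. In Insr, Clec4g, Fam155a and Unc5d, all dim, the clusters had opposite signs. Genes with near copies elsewhere, among them Vdac3, Hmgb1-rs17 and the defensins, may be read by probes that also match the copies.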

How the data were processed

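The deposited table holds 1 log2 value per transcript cluster and array (35556 clusters, 4 arrays). RMA, which the submitters' processing notes name, subtracts background, equalises the arrays by quantiles and summarises probes. No source used here gives its version or settings. That the scale is log2 was taken from the range of the values. Clusters were named through the platform's gene table: 21789 have 1 symbol and were tested, 1621 several and 12146 none listed. Chromosomes and order came from RefSeq (GRCm38.p6) by gene ID, with 91 clusters unmatched. No source used here names the array's build, so coordinates are printed only for the RefSeq promoter windows, with their own build.

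The comparison of Mbd4 KO with control used limma 3.58.1 (R 4.3.3; lmFit and eBayes, two-sided, Benjamini-Hochberg over all tested clusters, threshold 0.05), on the values as deposited. SE is limma's moderated standard error. The number of arrays limits the precision. A gene is represented by its cluster with the highest mean. Named are Mbd4, the 12 lowest and 8 highest differences of expressed members, 8 genes on each side of Tnks, every called member, the 2 largest of each role list, 4 defensins and the 6 brightest members, and others serve as examples of their list. The 8 role lists hold 139 members. Members, lists and rules were chosen with earlier results of these data known. Alternatives were a replicate block, each array left out, an intensity trend or robust prior, removal of the dimmest 30%, quantile or cyclic loess normalization, another centring, all clusters tested, other level cuts and a gene's clusters averaged. The fit was tested on simulated data. It recovered 0% of changes of 0.3, 6% of 0.5, 50% of 1 and 90% of 2 (log2), with 1 false call. The differences of the members lay at the small end of this range, so a missing call does not show an absent difference. Figures were drawn with matplotlib 3.10.9.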

Additional observations from a re-analysis of the deposited data

How the results depend on the processing

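The direction of the stretch held in every alternative run, and the calls of single clusters did not. With a replicate block, an intensity trend, a robust prior, the dimmest clusters removed or all clusters tested, the differences stay the same by design. Those runs could not change the direction, and the stretch was chosen for it. Against 16 clusters called lower by limma, 51 were called with an intensity trend, 38 without the dimmest 30% of clusters, and 0 when all 35556 clusters were tested (68 at an unadjusted p under 0.05). With the replicate number as a block 0 were called (81 unadjusted), with adjusted p from 0.0567 to 0.0911 for the 16. The labels do not say whether the numbers pair the samples. Deviations of same-numbered arrays correlated at 0.0831, which cannot settle whether they shared a culture or a day. Leaving out 1 array gave 0 in each case. No alternative called a member cluster higher. The median difference of expressed members, -0.30, was -0.32 with cyclic loess normalization or with arrays centred on clusters outside chromosomes 8 and 16. With the cut at the upper quartile (23 genes, 0 at or above zero) the median was also -0.32. Of these, 22 had both Mbd4 KO arrays below, against 25.7% of all genes at that level. The median was -0.073 with no level cut (81 of 218 at or above zero). Leaving out 1 array moved the median between -0.30 and -0.27, and the count at or above zero between 7 and 12. The count of members whose remaining Mbd4 KO arrays all lay below the remaining control arrays was 82 to 87. With fewer arrays this count can only stay or rise, so nothing is read from it. Among differences of single named genes none changed sign where called. Those of 3930402G23Rik, Sox1, Defb15, Ppp1r3b, Mir383 and Micu3, which limma did not call, changed sign with 1 array left out. Genes given only as examples of their list were not followed here. The number of arrays, and the unknown signal over background of dim clusters, limit what can be seen.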

Other observations

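Transcript clusters that list several symbols took no part in the description of the stretch. In 7 of them every symbol with a RefSeq position lies on proximal chromosome 8, and all 7 hold defensins, mostly alpha-defensins. Their levels ran from 4.59 to 6.90, under the cut used for expressed genes, and their differences from -0.19 to 0.073, with a median of 0.0055 and 3 below zero. In 1 the Mbd4 KO arrays lay below the control arrays: it lists 9 symbols, with Defa33 first, and had 6.99 in both control arrays, against 6.73 and 6.88 with Mbd4 KO.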
